A study of Mus musculus with 13 samples.

Results

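The genes described here are 8 lysosomal cathepsins, Ctsb, Ctsc, Ctsd, Ctsh, Ctsk, Ctsl, Ctss and Ctsz, out of 31053 genes counted in single cells of the mouse lung. They were taken by gene symbol, and they were measured in the 33618 of 37344 cell barcodes in which mitochondrial genes gave at most 10% of the unique molecular identifiers (UMIs, tags that mark single RNA molecules). The samples are labelled as mouse lungs of the states Control, Asthma, PPE-emphysema, PPE-recovery, Con, emphysema and Acute injury. The study's methods give C57BL/6 mice, with ovalbumin for the asthma model. Porcine pancreatic elastase (PPE) was instilled into the airways weekly for emphysema, and only 1 time for recovery and acute injury. The study describes single-cell sequencing of 1 mouse each for control, asthma, PPE-emphysema and PPE-recovery, whereas the deposited cells carry library numbers up to 7. The deposited matrix carries library numbers 1 to 7 without sample names, so no library could be placed in a treatment group, no groups were compared, and the pooled cells count as 1 sample.

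Cathepsins are proteases of the lysosome, where proteins taken up by the cell or delivered from inside it are cut into peptides. They are made as inactive precursors, carried to the lysosome by mannose 6-phosphate receptors and activated there by removal of a propeptide. Ctsd is an aspartic protease and the other members are cysteine proteases of the papain family. In the lung they are best known from macrophages, and several of them can cut elastin or collagen once they leave the cell.

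Levels are UMIs of a gene per 1000000 UMIs of the cells concerned (CPM), with an exact 95% Poisson interval in brackets, and shares of cells carry an exact 95% binomial interval. Both cover counting error only. Since the 3′ chemistry gives tags at transcript ends, levels were not divided by transcript length. Cells were grouped without the 8 cathepsins into clusters, and clusters were named from fixed marker lists as 26 classes of at least 50 cells, each name ending in "-like". A further 1841 cells stayed unnamed and held 6.34% of the cathepsin UMIs. Libraries 1, 2, 3 and 7 held lung epithelial transcripts, whereas globin genes gave 35.3 to 40.7% of UMIs in libraries 4, 5 and 6 against at most 0.0310% in the other libraries. All samples are labelled lung, yet libraries 4, 5 and 6 contained no alveolar macrophage-like, endothelial-like or fibroblast-like cells. The libraries had 2992 to 7626 kept cells and 29619014 to 76435633 UMIs, and 123 of 33495 barcode sequences occurred in more than 1 library.

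The members lie on 6 chromosomes of the mouse assembly GRCm38. Ctsk (chr3:95499256-95509362, plus strand) and Ctss (chr3:95526786-95556403, plus strand) are neighbours. Ctsc (chr7:88278085-88310888, plus strand) and Ctsd (chr7:142375911-142388038, minus strand) share a chromosome at a distance. Ctsb (chr14:63122462-63145923, plus strand), Ctsh (chr9:90054152-90076089, plus strand), Ctsl (chr13:64359337-64370890, minus strand) and Ctsz (chr2:174427493-174439039, minus strand) are each alone. These spans are whole genes, and the UMIs come from their polyadenylated transcripts.

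Many lysosomal genes are controlled by the MiT/TFE transcription factors, which bind an E-box with the core CACGTG. The 250 bases before the RefSeq gene start on GRCm38.p6 are printed for 3 members with high levels in the macrophage-like classes below, chosen after their values had been seen, with CACGTG in capitals. They read 5′ to 3′ on the strand of the gene, from chr7:142387828-142388077 for Ctsd, chr13:64370521-64370770 for Ctsl and chr3:95498960-95499209 for Ctsk. The Ctsl window, with its CACGTG, lies wholly inside the Ctsl gene span given above, and the Ctsd window lies partly inside that of Ctsd. For these genes the RefSeq start used here is thus not the outer end of the span.
Ctsd: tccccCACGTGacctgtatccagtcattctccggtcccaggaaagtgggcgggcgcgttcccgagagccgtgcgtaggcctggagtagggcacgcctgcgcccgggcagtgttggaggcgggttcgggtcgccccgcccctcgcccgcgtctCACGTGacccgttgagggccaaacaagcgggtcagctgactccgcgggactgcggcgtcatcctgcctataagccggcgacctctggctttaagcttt
Ctsl: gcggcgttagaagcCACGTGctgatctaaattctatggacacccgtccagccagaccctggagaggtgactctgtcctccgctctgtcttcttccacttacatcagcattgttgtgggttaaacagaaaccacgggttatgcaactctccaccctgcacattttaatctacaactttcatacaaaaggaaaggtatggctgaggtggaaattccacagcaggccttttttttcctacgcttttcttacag
Ctsk: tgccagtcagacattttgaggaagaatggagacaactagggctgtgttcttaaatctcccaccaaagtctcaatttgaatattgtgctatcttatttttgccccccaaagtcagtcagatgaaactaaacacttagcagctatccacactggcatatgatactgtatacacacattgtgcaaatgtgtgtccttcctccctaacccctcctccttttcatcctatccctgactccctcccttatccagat
A window of 250 bases before to 50 bases after the start was held for 6 of the 8 members, all but Ctsb and Ctsh. CACGTG, which reads the same on both strands, occurred in 2 of these 6, against 8.09% of 27025 genes with such windows. It lay at -245 and -98 from the RefSeq start in Ctsd and at -236 in Ctsl. CATGTGA, searched on both strands and chosen after the sequences had been seen, occurred in 1 of the 6, against 4.50% of these genes. It lay 20 bases after the start in Ctss. Neither motif was in the window of Ctsk, which says only that these letters are absent there.

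The cathepsins were highest in the macrophage-like classes. Of the 8 members, 7 had their highest pooled level there, against 7.11% of the 13697 genes that reached 10 CPM in some class. The exception was Ctsh, highest in the alveolar type 2 (AT2)-like epithelium. The sum of the 8 members reached 26208.2 CPM in Mmp12 macrophage-like cells, which were named from Arg1, Mmp12 (macrophage elastase), Spp1 and Gpnmb. It was 16011.5 CPM in alveolar macrophage-like cells, named from Ear1, Marco, Plet1 and other genes of the resident airspace macrophage, and 8521 CPM in C1q macrophage-like cells, named from the complement genes C1qa to C1qc. Nonclassical and classical monocyte-like cells followed at 5080 and 4783 CPM, and the sum was lowest in erythroid-like cells at 175.9 CPM. Macrophage-like cells were 5052 of the 33618 kept cells and gave 22.3% of all UMIs but 67.5% of the cathepsin UMIs. These shares include libraries 4, 5 and 6, which held almost none of these cells. In libraries 1, 2, 3 and 7 alone macrophage-like cells gave 73.7% of the cathepsin UMIs, and their larger shares of all UMIs there are given by library below.

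**Figure D1:**
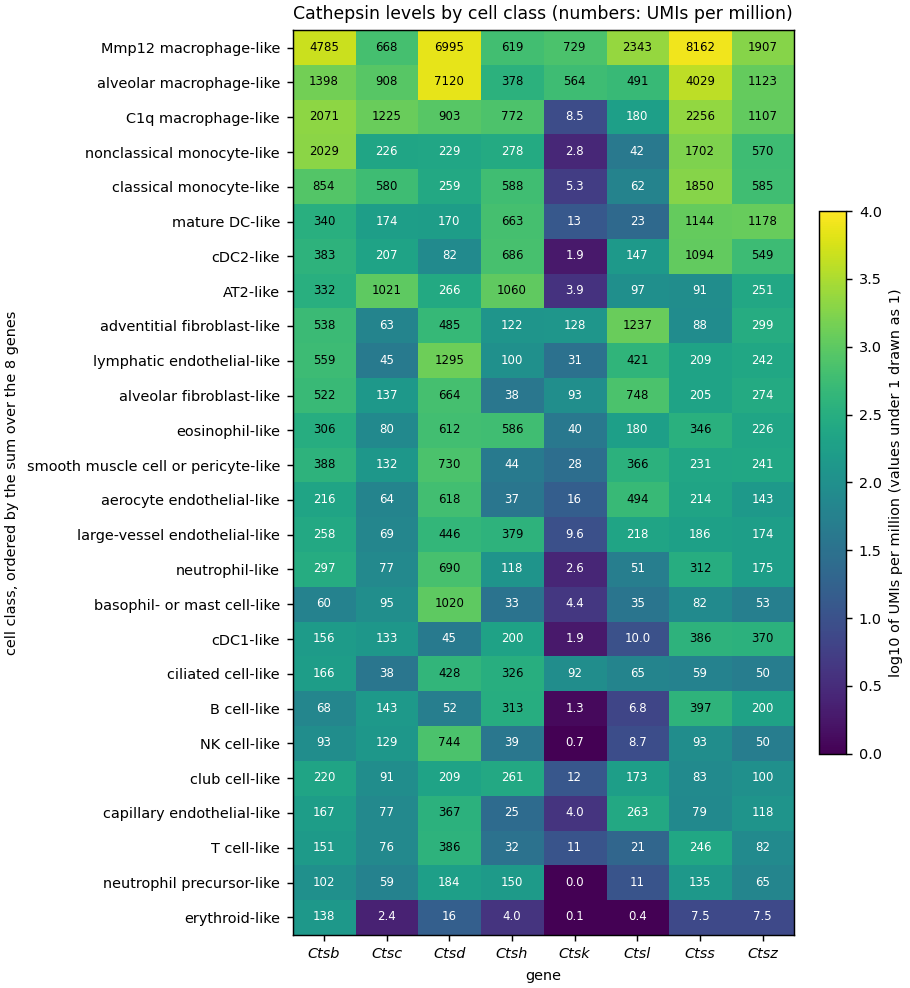
Heat map of the pooled level of each of the 8 cathepsins (columns, CPM, colour on a log scale) in 26 cell classes (rows), with the level printed in each cell of the map. The rows of the 3 macrophage-like classes carry the highest levels of 7 of the 8 genes, and AT2-like cells carry that of Ctsh.

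The make-up of the sum differed between classes. Ctsd was the leading member in 13 of the 26 classes, Ctss in 6, Ctsb, Ctsh and Ctsl in 2 each and Ctsz in 1. Mmp12 macrophage-like cells were led by Ctss with 31.1% of their cathepsin UMIs, alveolar macrophage-like cells by Ctsd with 44.5%. Ctsl gave 41.8% of the cathepsin UMIs in adventitial fibroblast-like cells and 8.94% in Mmp12 macrophage-like cells, although its level was higher in the second class. Ctsz led in mature dendritic cell (DC)-like cells with 31.8%.

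**Figure D2:**
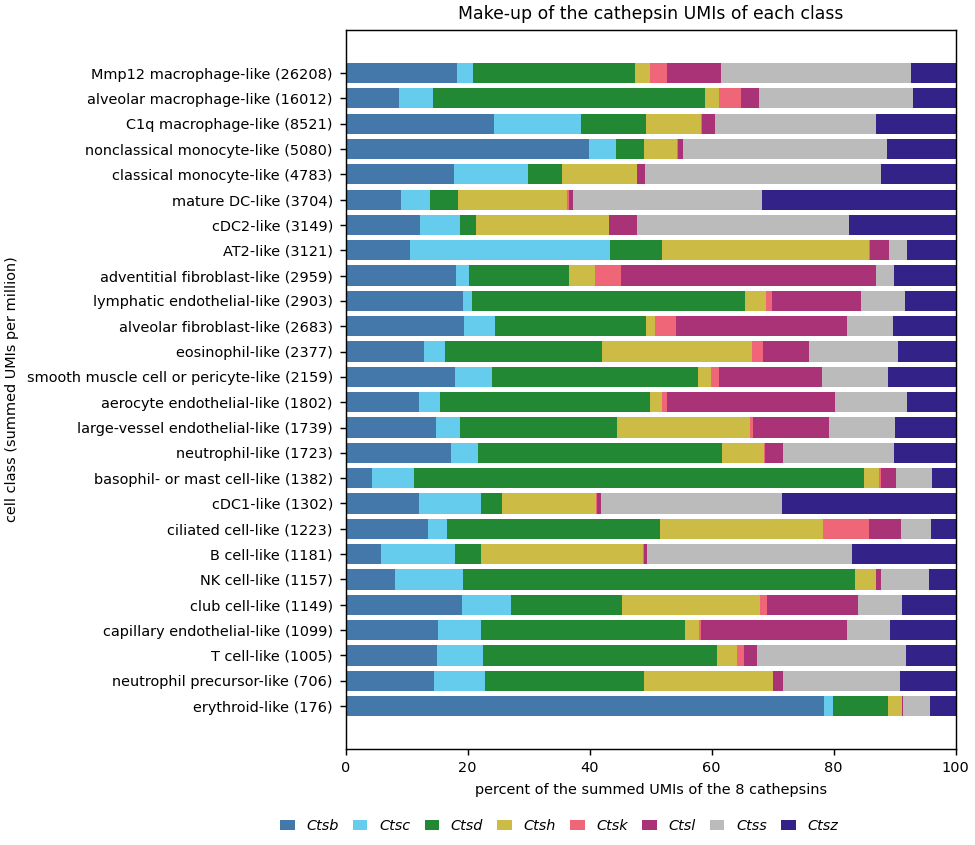
Stacked bars of the make-up of the summed UMIs of the 8 cathepsins (percent of the sum, horizontal axis) in each cell class. Ctsd takes 44.5% of the bar in alveolar macrophage-like cells and Ctsl takes 41.8% in adventitial fibroblast-like cells.

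Ctsd, the aspartic protease that digests proteins in bulk and helps to mature other lysosomal enzymes, stood at 7120 CPM (7095 to 7144) in alveolar macrophage-like cells and at 6995 CPM (6947 to 7042) in Mmp12 macrophage-like cells. The ratio of these levels, 1.02 (1.01 to 1.03), was smaller than the difference between libraries, and their order turned within library 1. There Ctsd was 5380 CPM in alveolar and 8137 CPM in Mmp12 macrophage-like cells, against 8036 and 5867 CPM in library 7. Every other class was at 1295 CPM, the level of lymphatic endothelial-like cells, or below. C1q macrophage-like cells held 903 CPM, so Ctsd set the C1q class apart from the other macrophage-like classes. Basophil or mast cell-like and natural killer (NK) cell-like cells had Ctsd as their main cathepsin, with 1020 CPM (929 to 1117) and 744 CPM (713 to 777). In NK cell-like cells the level was 605 to 1021 CPM over the 6 libraries with at least 20 such cells.

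Ctsb, an abundant endopeptidase that also trims dipeptides from protein ends, had its highest level in Mmp12 macrophage-like cells, at 4785 CPM (4745 to 4824). It was 4352 CPM in library 1, 2046 CPM in library 2 and 6209 CPM in library 7. C1q macrophage-like cells followed with 2071 CPM (2041 to 2102) and nonclassical monocyte-like cells with 2029 CPM (2001 to 2058), with overlapping intervals. The level in the Mmp12 class moved with the processing, to 2566 CPM without alignment of libraries and to 7218 CPM as a mean over cells. Alveolar macrophage-like cells had a lower level, 1398 CPM. Erythroid-like cells had almost no other member than Ctsb, which gave 78.5% of their cathepsin UMIs at levels of 77.1 to 174 CPM in libraries 4, 5 and 6.

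Ctss is the elastin-cutting cathepsin that stays active at neutral pH and cleaves the invariant chain of MHC class II in antigen-presenting cells. It had the highest pooled level of any member in any class. This level was 8162 CPM (8111 to 8214) in Mmp12 macrophage-like, 4029 CPM (4010 to 4048) in alveolar macrophage-like and 2256 CPM (2225 to 2288) in C1q macrophage-like cells. In libraries 2 and 7 Ctsd of the alveolar class, at 8915 and 8036 CPM, was above Ctss of the Mmp12 class. In the Mmp12 class Ctss was 10363.9 CPM in library 1, 5016 CPM in library 2 and 6306 CPM in library 7. For Ctss in the alveolar class libraries 1, 2 and 7 lay close together, at 4467, 4527 and 4461 CPM, and library 3 lay lower, at 2295 CPM. Monocyte-like cells were even across libraries, with 1716 to 2076 CPM in classical monocyte-like cells over all 7. Mature DC-like and conventional type 2 DC (cDC2)-like cells held 1144 and 1094 CPM. B cell-like cells held 308 to 423 CPM over the 7 libraries, so Ctss was found in lymphoid antigen-presenting cells too. Within neutrophil-like cells a cluster of 152 cells stood apart at 1411 CPM, against 54.2 to 165 CPM in the other 3 neutrophil-like clusters. Its Ctsb level was also high, at 985 CPM.

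Ctsz, a carboxypeptidase that removes single residues from protein ends, was highest in Mmp12 macrophage-like cells at 1907 CPM (1882 to 1932). Mature DC-like cells were next at 1178 CPM (1140 to 1217). Alveolar macrophage-like cells at 1123 CPM and C1q macrophage-like cells at 1107 CPM had a pooled ratio of 0.985 (0.964 to 1.01), within counting error. In the alveolar class Ctsz was 1327, 1134, 820 and 1227 CPM in libraries 1, 2, 3 and 7. Within libraries the classes differed, and their order turned. In cells of 3000 UMIs or more the C1q class held 1466, 833, 744 and 977 CPM in those libraries, against 1335, 1136, 822 and 1227 CPM in the alveolar class.

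Ctsc, also named dipeptidyl peptidase I, activates the granule serine proteases of neutrophils, mast cells and cytotoxic lymphocytes. Its highest level was in C1q macrophage-like cells, 1225 CPM (1202 to 1248), followed by AT2-like cells with 1021 CPM (997 to 1045) and alveolar macrophage-like cells with 908 CPM (900 to 917). The C1q class was even over libraries 1, 2, 3 and 7, at 1208, 1276, 1082 and 1328 CPM. AT2-like cells varied more, at 1670, 944, 806 and 1112 CPM, so in library 1 AT2-like cells held more Ctsc than C1q macrophage-like cells. Ctsc was the member with the smallest lead of its highest class outside Ctsd, with a ratio of 1.20 (1.16 to 1.24) to the next class.

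Ctsh, an aminopeptidase that takes part in the processing of surfactant protein B in the alveolar epithelium, was highest in AT2-like cells at 1060 CPM (1035 to 1084). It was 1381, 994, 950 and 1238 CPM there in libraries 1, 2, 3 and 7. C1q macrophage-like cells, cDC2-like cells and mature DC-like cells followed with 772, 686 and 663 CPM. The intervals of the last of these classes overlapped, 667 to 705 CPM for cDC2-like and 634 to 692 CPM for mature DC-like cells. Among endothelial classes Ctsh was 379 CPM in large-vessel and 24.6 CPM in capillary endothelial-like cells. B cell-like cells held 264 to 345 CPM over the 7 libraries.

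Ctsk, the collagen- and elastin-cutting cathepsin best known from osteoclasts, was the member most uneven across classes. It was 729 CPM (714 to 745) in Mmp12 macrophage-like and 564 CPM (557 to 571) in alveolar macrophage-like cells, and no other class exceeded the 128 CPM (115 to 143) of adventitial fibroblast-like cells. C1q macrophage-like cells were at 8.48 CPM (6.65 to 10.7), and each of libraries 1, 2, 3 and 7 gave at most 11.5 CPM there. Ctsk was found in 79.8% of alveolar and 65.6% of Mmp12 macrophage-like cells, against 0.763% of B cell-like cells, at median depths of 14303.5, 6744 and 5040 UMIs. Among cells thinned to 1500 UMIs the shares were 40.0, 44.7 and 0.263%, so the order of the macrophage-like classes by share turned with depth. In the alveolar class its level was 1020, 492, 315 and 569 CPM in libraries 1, 2, 3 and 7, with library 1 standing above the others. The Mmp12 class held 515, 379 and 1122 CPM in libraries 1, 2 and 7. It thus lay above the alveolar class in library 7 and below it in libraries 1 and 2. Alveolar fibroblast-like cells were at 93.3 CPM, with 28.2 CPM in library 3 below the 86.1 to 118 CPM of libraries 1, 2 and 7. Ciliated cell-like cells held 91.5 CPM (81.5 to 102), at 81.8, 93.4 and 101 CPM in libraries 2, 3 and 7, and 15.3% (9.75 to 22.5) of them had Ctsk at 1500 UMIs. In neutrophil precursor-like cells Ctsk had 0 UMIs, which allows up to 2.998 CPM.

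Ctsl, an endopeptidase of lysosomes that can cut elastin and collagen outside the cell, was high in macrophages and in lung stroma. Its level was 2343 CPM (2315 to 2371) in Mmp12 macrophage-like cells, 1237 CPM (1194 to 1280) in adventitial fibroblast-like cells and 748 CPM (736 to 761) in alveolar fibroblast-like cells. Aerocyte endothelial-like cells, the gas-exchange capillary cells, at 494 CPM (473 to 517) and alveolar macrophage-like cells at 491 CPM (485 to 498) were within counting error of each other. Capillary endothelial-like cells held 263 CPM and C1q macrophage-like cells 180 CPM. Club cell-like cells were near the C1q class, at 173 CPM, and cDC2-like and AT2-like cells were lower, at 147 and 96.8 CPM. Erythroid-like cells had the least, at 0.353 CPM, followed by B cell-like cells at 6.76 CPM and NK cell-like cells at 8.71 CPM. Conventional type 1 DC-like and neutrophil precursor-like cells were next, at 9.98 and 11.0 CPM, below T cell-like cells at 20.9 CPM. At their own depths Ctsl was found in 93.7% of adventitial fibroblast-like, 92.6% of Mmp12 macrophage-like, 89.8% of alveolar macrophage-like and 3.96% of B cell-like cells. At 1500 UMIs, which left out 233 Mmp12 macrophage-like cells, it was found in 84.2% of adventitial fibroblast-like, 72.2% of Mmp12 macrophage-like, 46.0% of alveolar macrophage-like and 0.909% of B cell-like cells. The order by share of cells therefore began with fibroblasts, whereas the order by pooled level began with Mmp12 macrophage-like cells.

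Which class led for Ctsl depended on the library. In 2 of the 4 lung libraries, 1 and 7, Ctsl was highest in Mmp12 macrophage-like cells, and in libraries 2 and 3 it was highest in adventitial fibroblast-like cells. Only classes of at least 20 cells in a library entered, and adventitial fibroblast-like cells, 7 in library 1 and 2 in library 7, did not enter there. Mmp12 macrophage-like cells held 1402 CPM in library 1, 790 CPM in library 2 and 4058 CPM in library 7, and library 3 had only 10 such cells. In this class doublets were called in 13 of the 70 cells of library 2, against 5 of 479 in library 1 and 5 of 583 in library 7. The part of these calls in the levels of library 2 was not tested. Adventitial fibroblast-like cells held 1311 and 1169 CPM in libraries 2 and 3. Alveolar fibroblast-like cells were even, with 627, 768, 739 and 642 CPM in libraries 1, 2, 3 and 7. Library 7 set the pooled value of the Mmp12 class: without it Ctsl was 1274 CPM and Ctsk 484 CPM in that class. The pooled level of Ctsl also moved with the way cells were grouped, from 1115 CPM without alignment of libraries to 5762 CPM as a mean over cells, and with a mitochondrial limit of 5% it was 3667 CPM.

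**Figure D3:**
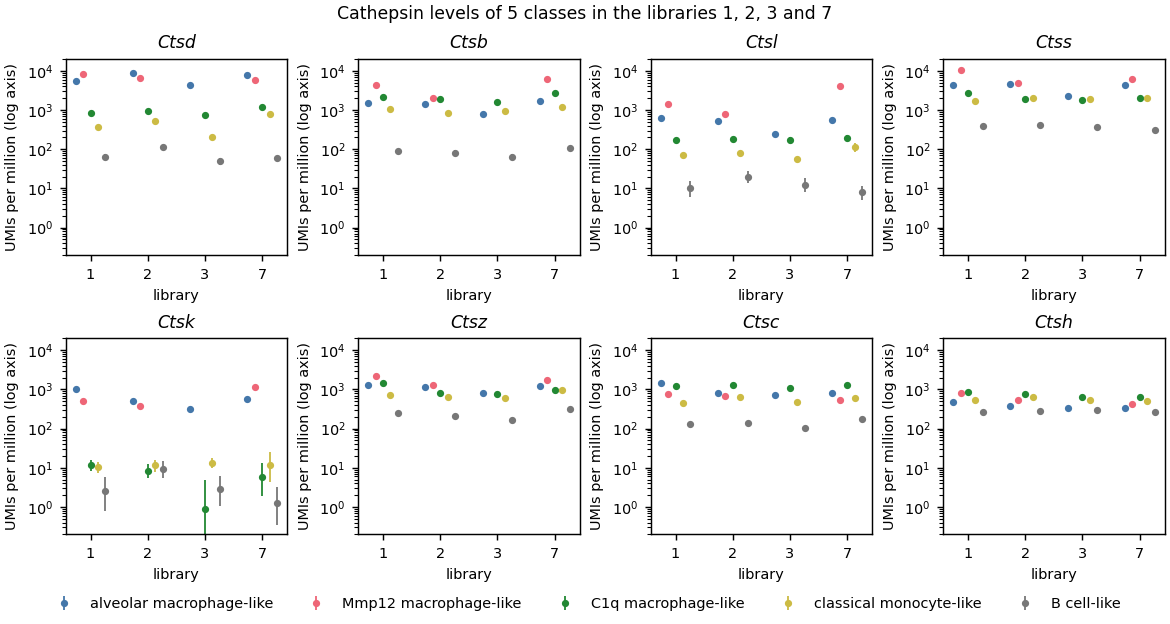
Level of each cathepsin (CPM, log scale, 1 panel for each gene) in 5 cell classes of libraries 1, 2, 3 and 7, with bars for the 95% Poisson interval. Ctsl in Mmp12 macrophage-like cells spreads from 790 CPM in library 2 to 4058 CPM in library 7, while alveolar macrophage-like cells lie between 241 and 642 CPM.

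The cells that supplied each transcript differed accordingly. Macrophage-like cells gave 82.8% of all Ctsk UMIs and 80.8% of Ctsd UMIs, 68.9% of Ctss, 60.0% of Ctsb, 59.6% of Ctsl, 56.8% of Ctsz and 55.8% of Ctsc, and 35.5% of Ctsh. For Ctsl the share was 79.8% in library 1, 35.1% in library 2, 22.0% in library 3 and 92.2% in library 7. Those libraries drew 38.5, 27.2, 24.1 and 48.1% of all their UMIs from macrophage-like cells, so in library 3 these cells gave less of the Ctsl than of the RNA. Alveolar fibroblast-like cells gave 33.6% of Ctsl UMIs in library 2 and 29.7% in library 3. Mmp12 macrophage-like cells gave 47.8% in library 1 and 69.0% in library 7. In whole libraries Ctsl stood at 387, 375, 256 and 801 CPM in libraries 1, 2, 3 and 7 and at 28.3, 7.38 and 11.6 CPM in libraries 4, 5 and 6.

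**Figure D4:**
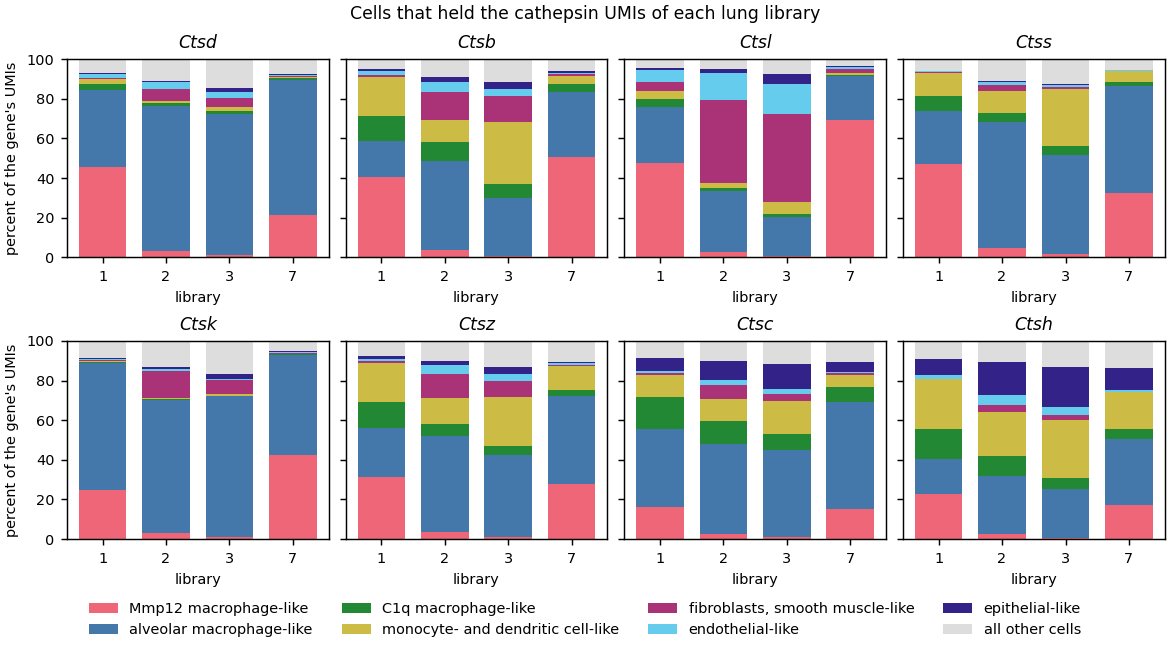
Stacked bars of the share of each cathepsin's UMIs (percent, vertical axis) that came from each group of cell classes in libraries 1, 2, 3 and 7. For Ctsl the macrophage-like share is 79.8, 35.1, 22.0 and 92.2%, and fibroblast-like cells fill much of the rest in libraries 2 and 3.

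The macrophage-like classes were set against each other. Between Mmp12 and alveolar macrophage-like cells, 3 of the 8 members were more than 2-fold higher in the Mmp12 class, against 4.88% of the 7984 genes with enough UMIs. These were Ctsl at 4.77-fold (4.69 to 4.86), Ctsb at 3.42-fold (3.38 to 3.46) and Ctss at 2.03-fold (2.01 to 2.04). Ctsz, Ctsh and Ctsk had ratios of 1.70, 1.64 and 1.29, Ctsd 0.982 and Ctsc 0.736. No member was more than 2-fold lower in the Mmp12 class, against 5.8% of genes. The median log2 ratio was 0.74 for the members and -0.14 for all genes tested. The folds rested on the library. Ctsl was 4058 against 566 CPM within library 7, 1402 against 642 CPM within library 1 and 790 against 515 CPM within library 2. Ctss was 10363.9 against 4467 CPM in library 1, 5016 against 4527 CPM in library 2 and 6306 against 4461 CPM in library 7. In these libraries Ctsb was 4352 against 1540, 2046 against 1453 and 6209 against 1732 CPM. Ctss was thus less than 2-fold higher in libraries 2 and 7, and Ctsb and Ctsl in library 2. Ctsk was lower in the Mmp12 class in libraries 1 and 2. Library 3 gave 744 alveolar but only 10 Mmp12 macrophage-like cells to the pooled levels. Library 2 gave 70 Mmp12 macrophage-like cells, and 13 of them were called doublets.

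Between C1q and alveolar macrophage-like cells the members went in different directions. Ctsh was 2.04-fold (1.98 to 2.10) higher in the pooled C1q class, 1 of 8 members past 2-fold, against 10.8% of 8406 genes. This fold lay at the limit and moved with the library. Among cells of 3000 UMIs or more Ctsh was 852 against 472 CPM in library 1 and 755 against 381 CPM in library 2. It was 661 against 330 CPM in library 3 and 651 against 345 CPM in library 7, so libraries 1, 2 and 7 were below 2-fold. Ctsk with a ratio of 0.0150, Ctsd with 0.127 and Ctsl with 0.366 were more than 2-fold lower, 3 of 8 members, against 10.9% of genes. Ctsb and Ctsc had ratios of 1.48 and 1.35, and Ctsz and Ctss had 0.985 and 0.560. Classes named from each cell's own markers in place of clusters gave higher levels in the C1q class for Ctsd, 2171 CPM, Ctsk, 51.1 CPM, and Ctsl, 401 CPM.

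Alveolar macrophage-like cells fell into 2 clusters of unlike cathepsin content. In the cluster of 1973 cells, of which 45.3% came from library 2, Ctss was 4783 CPM, Ctsb 1631 CPM and Ctsl 596 CPM. In the cluster of 1163 cells, of which 61.9% came from library 3, Ctss was 2468 CPM, Ctsb 915 CPM and Ctsl 275 CPM. The cluster led by library 3 had the lower levels of these members, and their order was the same within each of libraries 1, 2, 3 and 7. Ctsl was 681, 558, 358 and 599 CPM in the larger cluster and 396, 331, 236 and 310 CPM in the smaller one in those libraries, with 24 cells of library 3 in the larger cluster. Ctsk went the other way in library 2, at 441 CPM in the larger and 715 CPM in the smaller cluster. The larger cluster was led by Gdf15, Spp1 and Chil3 and the smaller one by Fabp1, Acaa1b and Cidec. Spp1 was also a marker that named the Mmp12 class, where it was highest, at 3985 CPM. Over the whole class, cells of library 7 held 2.35-fold (2.24 to 2.47) more Ctsl than those of library 3, where 3.58% of 8049 genes were more than 2-fold higher. Against libraries 1 and 2 the Ctsl ratio was 0.883 and 1.10.

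Mmp12 macrophage-like cells of libraries 1 and 7 differed in the kind of cathepsin they held. Ctsl was 2.89-fold (2.82 to 2.97) and Ctsk 2.18-fold (2.08 to 2.28) higher in library 7, 2 of the 8 members, against 3.49% of 7793 genes past 2-fold. Ctsh was at 0.523, Ctss at 0.608, Ctsc at 0.708 and Ctsd at 0.721 of the level in library 1, and none passed 2-fold in that direction, against 2.05% of genes. Ctsb was at 1.43 and Ctsz at 0.816. Each library is 1 set of cells with no label, so these values compare those libraries and no conditions.

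The Ctsl of this class was uneven between cells. Per cell, Ctsl in Mmp12 macrophage-like cells had a median of 3344 CPM and a 90th percentile of 27235.1 CPM in library 7, against 917 and 3316 CPM in library 1. Cells with at least 1% of their UMIs from Ctsl were 161 of 583 in library 7 (27.6%, 24.0 to 31.4), 7 of 479 in library 1 (1.46%) and 1 of 70 in library 2. The highest cell had 12.6% of its UMIs from Ctsl. In library 7, 66 of the 583 cells held 50% of the Ctsl UMIs of the class, and in library 1 44 of 479 did, so the UMIs were concentrated in both. Among alveolar macrophage-like cells 1 of 655 in library 1, 2 of 603 in library 7 and none of 1134 and 744 in libraries 2 and 3 reached 1%.

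A high proportion of Ctsl was more frequent in shallow cells. Of the Mmp12 macrophage-like cells of library 7 with under 3000 UMIs, 117 of 255 (45.9%) had at least 1% Ctsl, against 44 of 328 (13.4%) of those with 3000 UMIs or more. The limits of 1% and 3000 UMIs were set after the data had been seen. Ctsl stood at 15795.9 CPM in the shallow and at 3099 CPM in the deeper cells, 5.10-fold (4.94 to 5.26), and Ctsb at 13290.6 and 5631 CPM, 2.36-fold (2.29 to 2.44). These were 2 of the 8 members past 2-fold, against 8.67% of 7974 genes, and no member was more than 2-fold lower, against 12.0% of genes. Ctsz was nearest to that limit with a ratio of 0.509. The same direction was seen in library 1, where Mmp12 macrophage-like cells held 2485 CPM of Ctsl in shallow and 1372 CPM in deeper cells, and in alveolar macrophage-like cells, with 1195 and 632 CPM in library 1 and 1476 and 563 CPM in library 7. Alveolar macrophage-like cells of libraries 2 and 3 did not show it, with 483 and 515 CPM in library 2 and 152 and 242 CPM in library 3. In library 7 the UMIs of Ctsl per cell were fewer in the shallow Mmp12 macrophage-like cells, 21.2 against 39.6, so their high proportion went with a small total.

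All 8 markers of the class were found in the shallow cells of library 7, 3 at higher and 5 at lower levels than in the deeper cells. Mmp12, Spp1 and Cd36 were higher, at 7303, 6402 and 1858 CPM against 3991, 4889 and 1317 CPM. Arg1, Fabp5, Gpnmb, Trem2 and Rnase2a were lower, at 2829, 1111, 455, 292 and 152 CPM against 3105, 2184, 1269, 422 and 288 CPM. The median mitochondrial share was 3.15% in the shallow and 4.68% in the deeper cells, and doublets were called in 1 of 255 and 4 of 328. Of the 10 alveolar macrophage markers 7 were at 0 to 99.2 CPM in the shallow and at 0.715 to 134 CPM in the deeper cells. Among these 7, Fabp1 was at 0, Siglecf at 5.83 CPM and Ear1 at 11.7 CPM in the shallow cells. The rest of the markers were high there, with Chil3 at 74491.1, Mrc1 at 922 and Atp6v0d2 at 691 CPM. The deeper cells had Fabp1 at 0.715, Siglecf at 4.29 and Ear1 at 7.39 CPM. They had Chil3 at 76193.5, Mrc1 at 905 and Atp6v0d2 at 838 CPM. The part of cell size, RNA loss or free RNA in the high Ctsl proportion was not tested.

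**Figure D5:**
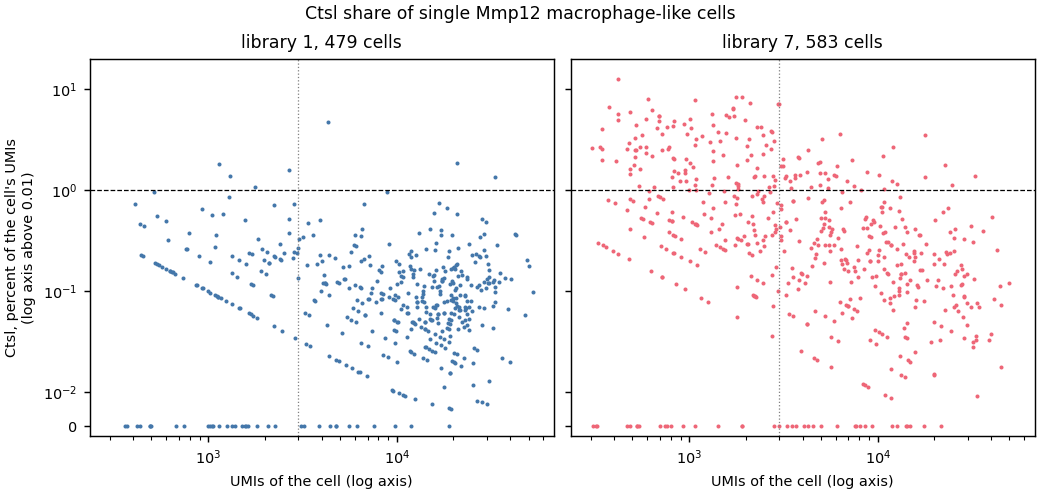
Share of a cell's UMIs that came from Ctsl (percent, vertical axis) against its UMIs (horizontal axis, log scale) for each Mmp12 macrophage-like cell of libraries 1 and 7, with a dashed line at 1% and a dotted line at 3000 UMIs. In library 7, 161 of 583 points lie at or above 1%, most of them left of 3000 UMIs, and in library 1 only 7 of 479 do.

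Eosinophil-like cells were the class with the shallowest libraries, with a median of 687 UMIs. They were 129 cells, of which 119 came from library 7, named from Ccr3, the eotaxin receptor, found in 51.2% of them, and Alox15, while the granule gene Epx was found in 0.775%. Their main cathepsins in library 7 were Ctsd at 809 CPM (639 to 1011) and Ctsh at 589 CPM (445 to 764). Ctsb was 263 CPM, Ctsz 147 CPM, Ctss 137 CPM and Ctsl 126 CPM (65.2 to 220), with Ctsl found in 8 of 119 cells. In the same library Ctsl was 7.87 CPM in B cell-like and 30.4 CPM in T cell-like cells, whose cells were deeper. Neutrophil-like cells held 80.9 CPM of Ctsl over libraries 1, 2, 3 and 7 together, inside the interval of the eosinophil-like cells. Among all 61 cells of the series with at least 2 Ccr3 UMIs, Ctsl was 120 CPM (74.0 to 183) from 21 UMIs, and the 33 of them that were eosinophil-like held 1 of those UMIs. The remaining UMIs thus came from Ccr3-positive cells of other classes. The part of free RNA in these small counts was not tested.

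B cell-like cells served as the background for transcripts they should lack, at a median of 5040 UMIs. Their Ctsl level was 7.87 to 19.7 CPM in libraries 1, 2, 3 and 7 and 4.54, 3.50 and 5.89 CPM in libraries 4, 5 and 6. Ctsk was 1.26 to 9.33 CPM in libraries 1, 2, 3 and 7 and at most 0.583 CPM in libraries 4, 5 and 6. Ctss and Ctsh of the same cells were 308 to 423 and 264 to 345 CPM. Their ratios of libraries 1, 2, 3 and 7 to libraries 4, 5 and 6 were 0.902 and 0.830. Those of Ctsb, Ctsd and Ctsz were 1.46, 1.57 and 1.37, and that of Ctsc was 0.968. The higher Ctsl and Ctsk values sat in the libraries that held macrophages, and the part of free RNA in them was not tested.

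The same comparison was made for 7 classes present in both kinds of library. The ratio of lung to globin-rich libraries for Ctsl was 5.66 in T cell-like, 4.28 in neutrophil-like, 3.38 in NK cell-like, 2.48 in B cell-like, 2.46 in cDC2-like, 1.59 in nonclassical and 1.26 in classical monocyte-like cells. For Ctss it was 0.902 to 2.26 and for Ctsd 1.19 to 2.55. Ctsk in classical monocyte-like cells was 11.8 CPM in lung libraries against 0.537 CPM, a ratio of 22.0 (10.8 to 52.1). A cluster of 22 cells held 108 of the Ctsk UMIs of that class, at 317 CPM, with Ctsd at 4521 CPM, and the other 2439 cells were at 1.14 CPM. The part of free RNA in these ratios was not tested.

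Most macrophage-like cells held most of the members at once. All 8 were found in 70.6% of alveolar, 46.5% of Mmp12 and 2.97% of C1q macrophage-like cells, at their own depths. Among the 2961 alveolar, 909 Mmp12 and 726 C1q macrophage-like cells that reached 1500 UMIs, 6 or more members were found at that depth in 52.9% of alveolar, 71.2% of Mmp12 and 28.2% of C1q cells, so the order of the alveolar and Mmp12 classes turned at equal depth. B cell-like cells had a median of 1 member at that depth.

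Members were found together in a cell slightly more often than independent detection within each library and class would give. All 28 pairs had a ratio of observed to expected cells whose interval lay above 1, with ratios of 1.02 to 1.09, the highest for Ctsc with Ctsk. These ratios are small and shared cell depth enters them. The 1841 unnamed cells, which came from 23 clusters, also entered as a single class, and their part in the ratios was not tested. When cells were also grouped by depth, 11 of 28 pairs remained above 1, with no ratio over 1.04, and at 1500 UMIs 14 did. Within the macrophage-like classes 4 of 28 pairs lay above 1, and none did once depth was a stratum. In the alveolar class Ctsb, Ctsd and Ctss were found in 97.8, 99.3 and 98.9% of cells. Pairs of members found in nearly all cells could hardly exceed a ratio of 1, so the count cannot decide on them.

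Across the 26 classes, the patterns of members were compared by Pearson's r of log2(CPM + 1), as a description, since the classes share libraries. Ctss and Ctsz were most alike with r of 0.908, and Ctsd and Ctsh least with 0.154. Among 13387 genes, Ctsk was most like Slc7a2 (r of 0.925), then Atp6v0d2, a proton pump subunit, and Gpnmb. Atp6v0d2 and Gpnmb were also markers that named the alveolar and Mmp12 classes, so their likeness to Ctsk is partly set by the naming. Ctsl was most like Fndc3b (0.903), Mcfd2 and Smim13, and Ctss most like Psap (0.919), the precursor of saposins, Gnpda1 and the macrophage sialomucin Cd68. Ctsz was most like Hexa (0.927), a hexosaminidase subunit, Ctss and Psap. Ctsb was most like Fam20c (0.866), with Lgmn also among the 3 genes most like it, Ctsc most like Soat1 (0.866), Cndp2 and Npc1, Ctsd most like Cd200r4 (0.857), Pld3 and Hs1bp3, and Ctsh most like Eps8 (0.880), Rbm47 and Mob3b.

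Other genes of the pathway were described from lists. Of 52 genes, 29 were highest in a macrophage-like class, 18 of them in the Mmp12, 9 in the alveolar and 2 in the C1q class, against 7.11% of all genes and 1.88, 4.07 and 1.16% for these classes. Among lysosomal hydrolases and membrane proteins it was 19 of 23, led by Psap at 12247.1 CPM in Mmp12 macrophage-like cells. Atp6v0d2, counted among the 19, was also a marker that named the alveolar class. Among genes listed under activation and sorting it was 5 of 9. The 9 included Ggh, a lysosomal hydrolase, which was highest in eosinophil-like cells. Lgmn, the legumain that processes several cathepsin precursors, was 1664 CPM in Mmp12, 952 CPM in C1q and 520 CPM in alveolar macrophage-like cells, an order shared with Ctsb. The mannose 6-phosphate receptor M6pr was highest in alveolar macrophage-like cells at 276 CPM and Igf2r in adventitial fibroblast-like cells at 100 CPM. Among the MiT/TFE regulators it was 3 of 4, with Tfec at 136 CPM in alveolar, Mitf at 74.0 CPM in Mmp12 and Tfe3 at 80.0 CPM in C1q macrophage-like cells, and Tfeb highest in nonclassical monocyte-like cells at 79.1 CPM.

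The listed protease inhibitors were spread over several classes. The list held cystatins and stefins, which inhibit cysteine proteases, and also Serpinb6a and Spink5, which belong to families of serine protease inhibitors. Of 10, only Cstb, the cytosolic stefin B, was highest in a macrophage-like class, a share near the 7.11% of all genes. It was 1406 CPM in the Mmp12 and 872 CPM in the alveolar class. Cst3, the secreted cystatin C, was 26114.5 CPM in conventional type 1 DC (cDC1)-like and 12022.5 CPM in mature DC-like cells, but 1865 CPM in Mmp12, 740 CPM in alveolar and 3859 CPM in C1q macrophage-like cells. Stfa2l1, a stefin A gene, was highest in neutrophil-like cells at 859 CPM, and it belongs to a family of near-identical copies whose reads may be split. Cst7, cystatin F, was highest in NK cell-like cells at 134 CPM.

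Of 6 other cathepsins only Ctsa, a serine carboxypeptidase, was highest in a macrophage-like class, at 559 CPM in the Mmp12 class. Ctsw was highest in NK cell-like cells at 448 CPM, Ctso in B cell-like cells at 116 CPM and Ctsf in adventitial fibroblast-like cells at 78.4 CPM. Ctse and Ctsg were highest in basophil or mast cell-like cells at 48.7 and 28.8 CPM.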

How the data were processed

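Lung cells were dissociated and sequenced with 3′ single-cell chemistry (version 3 in the labels; the study's methods name version 2). The authors deposited 1 matrix of UMI counts for 7 numbered libraries, made with Cell Ranger 3.1.0 and STAR on mm10, with reads down-sampled between libraries. Kept cells (mitochondrial share at most 10%) were scaled to 10000 UMIs and log-transformed, 2000 variable genes without the 8 cathepsins gave 30 components, libraries were aligned by mutual neighbours, and cells were clustered (Leiden, 20 neighbours, resolution 0.8, leidenalg 0.10.2, scanpy 1.11.5). Members, gene lists and markers were chosen with earlier results of these data known, and the naming rule for clusters was set after a look at them. Named genes were the 8 members, the 3 genes most like each (1 of them is not reported here) and the listed pathway genes. UMIs were summed by class and library. No test was made, since the pooled matrix is 1 sample and cells are not replicates, and a count of 0 allows up to 3 counts. Scrublet called 1.00 to 5.61% doublets in libraries 1, 2, 3 and 7, which were kept in. In libraries 4, 5 and 6 it called at most 0.266% and did not work. Scripts were tested on simulated data. Gene positions came from GENCODE on GRCm38. Alternatives were other filters, alignments, resolutions and cell depths.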

Additional observations from a re-analysis of the deposited data

How the results depend on the processing

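No paired analysis was possible because the result comes from no test. Of the 8 members, 6 or 7 were highest in a macrophage-like class under every alternative run, 6 without alignment of libraries. The share of cathepsin UMIs held by macrophage-like classes, 67.5%, was 66.1% with a filter at 2 SD, 61.5% with a mitochondrial limit of 5%, 70.0% without doublet calls, 68.4% without alignment, 68.0 and 67.7% at resolutions of 0.4 and 1.5, 69.8% with 15 components, 71.4% with classes from each cell's own markers, 59.9% at 1500 UMIs and 73.7% in libraries 1, 2, 3 and 7 alone. It was 61.9 to 70.6% with 1 library left out. The 28 pairs found together became 14 at 1500 UMIs, 11 with depth strata and 14 in cells of 3000 UMIs or more. Ctsl was highest in a macrophage-like class in 1 to 2 lung libraries with 1 library left out, 1 without library 1 or library 7, and in 3 of 4 with the 2 SD filter. Of 350 levels recomputed under the other alternatives 337 stayed within 1.5 times the reported value, and of 175 with 1 library left out 173 did. Beyond those named in the report, Ctsl in Mmp12 macrophage-like cells was 1527 CPM with own markers and 3989 CPM at 1500 UMIs, Ctsl and Ctss in alveolar macrophage-like cells 287 and 2485 CPM without alignment, and Ctss in the C1q class 3605 CPM with own markers. The cause was not tested. The alternatives with libraries 1, 2, 3 and 7 alone and cells of 3000 UMIs or more were chosen after seeing the data. Depth limits the eosinophil-like cells most.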
